A study of Macaca mulatta with 9 samples.

Results

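ORMES9 is 1 of 5 embryonic stem (ES) cell lines of the rhesus macaque that were profiled with Affymetrix Rhesus genome arrays. Its array was set against the other 4 lines, ORMES6 (3 arrays of biological replicates A, B and C, averaged), ORMES7, ORMES10 and ORMES13 (1 array each), so that 1 array stood against 6 other ES arrays among the 9 arrays of the study. The genes described are those for which ORMES9 lay outside the range of all 6 other ES arrays. Genes known to lie on the Y chromosome were left out. The remaining arrays, pooled embryoid bodies (EBs, aggregates differentiated for 30 days) and somatic fibroblasts from skin, were used only to show levels.

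All ES lines were cultured in the same way, on feeder cells made from mouse embryos whose division had been stopped, in serum with the growth factor FGF2. Colonies were passaged by hand, and those of good morphology were picked for RNA. No genotype, treatment or passage was used to form groups, so the groups differ by cell line. ORMES9 was measured on 1 array, so that a difference of the line and a difference of that culture or array cannot be told apart. In such bulk samples fewer cells of a type and less RNA per cell cannot be told apart either.

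ES cells are pluripotent cells of the early embryo that can form all tissues of the body. Genomic imprinting marks some genes by DNA methylation according to the parent they came from, so that the copy from the father alone, or the copy from the mother alone, is transcribed. The region whose loss from the paternal chromosome causes Prader-Willi syndrome in human holds a cluster of paternally expressed genes, among them SNRPN, IPW, NDN and MAGEL2, beside the gene UBE3A, whose maternal copy is the active one in neurons. Imprinted marks are known to be lost or gained in some cultured ES cell lines.

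Values are given as the deposited signal, a linear scale, or as a level, log2(signal + 16). Undetected probe sets of the ORMES9 array had a median level of 4.85 and a 95th percentile of 6.39. A difference is the ORMES9 level minus the mean of the 4 other lines on that log2 scale, with its standard error (SE). It was tested with limma across all probe sets, and it was called where the Benjamini-Hochberg adjusted p was under 0.05. The error comes from the spread of the other 4 lines, and the lone ORMES9 array was taken to vary as they do. Limma also drew each error toward that of probe sets of like level, with 4.99 prior and 3 residual degrees of freedom. An SE can thus differ from a gene's own spread. The brightest CAP1 probe set had a standard deviation of 0.047 among the other lines and an SE of 0.26. Nothing in the labels says how the RNA of ORMES7, ORMES9, ORMES10 and ORMES13 was replicated. The p-values therefore measure the spread between the lines, moderated in this way. Detected means a deposited detection p under 0.05, known for 1 ORMES6 array and for each other line.

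The ORMES9 array was like the other ES arrays in overall quality. It had 42.4% of probe sets detected, against 39.5% to 42.5% for the other lines, a 3' to 5' actin signal ratio of 49.8 against 22.7 to 66.2, and a 3' to 5' GAPDH ratio of 3.79 against 2.55 to 5.20. Its hybridisation spike signal was 1313, against 683 to 701 for ORMES6 A and B and 1073 to 1360 for the other 4 ES arrays. Across probe sets Pearson r with the other ES arrays was 0.937 (ORMES6 A and B) to 0.959 (ORMES10). The factors that define ES cells were present: the level of POU5F1 was 12.14 in ORMES9 and 11.90 to 12.89 on the 6 other arrays, that of SOX2 was 12.01 against 12.03 to 12.61, and that of NANOG was 12.09 against 11.27 to 12.36. The fibroblast array had 5.16, 4.21 and 4.10 for these genes. SOX2 was thus just below the other arrays, by less than the spread between them, with a difference of -0.34 ± 0.26 (adjusted p = 0.974 by limma), and the others lay inside the range.

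Few probe sets were called different in ORMES9. The largest called differences, on the probe sets of SNRPN/SNURF, SNRPN and IPW, were in imprinted transcripts of the Prader-Willi region with nearly no signal in this line. A probe set without a gene name (-5.37) and PEG3 (-5.35) came next. With 3 residual degrees of freedom, a difference well beyond the spread of the other lines could stay uncalled. Of 52727 probe sets, limma called 2 higher (0.00379%) and 8 lower (0.0152%) in ORMES9. At an unadjusted p under 0.05 there were 1323 higher and 1302 lower, a balance that moved with the offset: 894 and 1963 with an offset of 1, and 1609 and 953 with an offset of 64. ORMES9 lay above all 6 other arrays for 7065 probe sets (13.4%) and below all 6 for 8107 (15.4%). With each of 19563 genes given by its probe set of highest mean, 2 genes were called higher (0.0102%) and 4 lower (0.0204%), 2773 lay above the range (14.2%) and 2963 below it (15.1%), and at an unadjusted p under 0.05 there were 427 higher and 537 lower genes. The 8 lower probe sets were 1 shared by SNRPN and SNURF, 1 of SNRPN, 1 of IPW, 1 of PEG3, 2 of CAP1 and 2 without a gene name, and the 2 higher ones belonged to CDK5R2 and KCNC2.

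**Figure D1:**
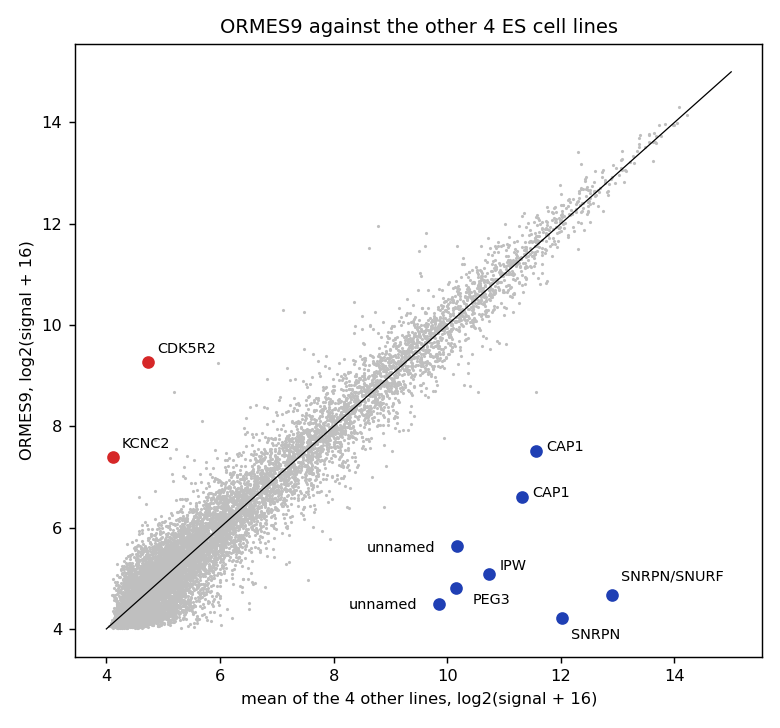
Level of each probe set in ORMES9 (y axis) against the mean of the 4 other ES cell lines (x axis), both as log2(signal + 16). Grey points are an evenly spaced subset of the probe sets, the line marks equal levels, and large points are the 10 called probe sets, 8 lower (blue) and 2 higher (red); the SNRPN and SNRPN/SNURF points lie lowest on the right.

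SNRPN encodes SmN, a protein of the splicing machinery, and its long transcript runs on through the Prader-Willi region; SNURF is a short reading frame upstream on the same messenger RNA. On the probe set shared by SNRPN and SNURF the signal was 9.5 in ORMES9, against 5496.3, 5820.2 and 9281.4 in ORMES6 A, B and C, 8007.7 in ORMES7, 8112.1 in ORMES10 and 7690.4 in ORMES13. On the probe set of SNRPN the signals were 2.7 in ORMES9, 2619.1, 2499.3 and 3993.5 in ORMES6 A to C, 4329 in ORMES7, 5016.5 in ORMES10 and 4581.7 in ORMES13. Every other ES array thus had a strong signal and ORMES9 had none above background, with no overlap. The differences were -8.22 ± 0.26 (adjusted p = 5.6e-05) and -7.80 ± 0.34 (adjusted p = 0.000411) by limma. Since this SNRPN probe set was not detected in ORMES9, its fold depends on the floor taken. Its signal plus 16 was 192-fold lower with the lowest detected signal on the ORMES9 array as the floor. That floor, a level of 4.44, lies below the median of undetected probe sets there, 4.85, so the ratio is not a firm bound. Against the 95th percentile of undetected probe sets on that array the more cautious bound was 49.7-fold. Both differentiated samples expressed the gene, with SNRPN signals of 792.7 in the EBs and 347.6 in the fibroblasts.

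The array held 6 more probe sets of SNRPN alone and 1 more shared with SNURF. The second shared probe set had a level of 5.16 in ORMES9 and 6.82 to 8.59 on the 6 other arrays, a difference of -2.36 ± 0.53 (adjusted p = 0.754). Among the 6 others of SNRPN, whose levels reached no more than 6.60 on any ES array, 2 were below the range, with differences of -0.96 and -0.97, and 4 were inside it. Of all 7 SNRPN probe sets 3 dim ones were detected in ORMES9. The median over all 7 SNRPN probe sets therefore gave -0.88 (adjusted p = 0.980).

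IPW is a long non-coding RNA of the Prader-Willi region. Its signal was 17.9 in ORMES9, against 1904.8, 1713.5 and 1767.7 in ORMES6 A to C, 1559.8 in ORMES7, 2043 in ORMES10 and 1393.8 in ORMES13. The 6 other arrays lay close together and far above ORMES9, where IPW was not detected. The difference was -5.64 ± 0.32 (adjusted p = 0.00206 by limma). On the signal plus 16 it was 50.03-fold, which is the observed ratio to an undetected value. Against the 95th percentile of undetected probe sets it was 20.2-fold. The call was kept when each line was left out in turn, and with ORMES10 and ORMES13 as the only other lines the difference was -5.65 (adjusted p = 0.145), a comparison added after seeing the data.

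The neighbours of SNRPN on chromosome 7 (order of genes as in the reference assembly of macaque genes) did not all behave alike. MAGEL2, which encodes a regulator of protein ubiquitination in endosome traffic, had a signal of 4.9 in ORMES9 and 152.7, 151.7, 162.3, 186.3, 529.6 and 177.2 in ORMES6 A, B and C, ORMES7, ORMES10 and ORMES13. ORMES9 was below all of them, and ORMES10 stood above the rest. The difference of -3.56 ± 0.63 was not called (adjusted p = 0.595). NDN, the gene of necdin, a protein that restrains the growth of neurons and other cells, had levels of 4.48 in ORMES9 and 4.31 in ORMES10. It was detected in neither, so the order of these levels carries no weight. The other arrays had NDN levels of 6.90 in ORMES7, also undetected, 8.37 in ORMES13 and 8.61 to 8.82 in ORMES6. NDN thus lay inside the range (difference -2.60 ± 1.42, adjusted p = 0.974). ORMES10 was the highest line for MAGEL2 and, like ORMES9, near background for NDN.

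PWAR5, a non-coding transcript of the region, had a low level on every array, 4.15 in ORMES9 and 5.65 to 5.98 on the 6 others, where it was detected in all 4 lines (difference -1.69 ± 0.38, adjusted p = 0.756). MKRN3, the gene of a ring finger protein, was detected in no line, and NPAP1 was detected in 1 other line, so neither gives a measured difference. UBE3A, the ubiquitin ligase next to SNRPN, was expressed in all lines: its level was 11.31 in ORMES9 and 11.31 to 11.68 on the 6 other arrays. ORMES9 was the lowest by a margin of 0.0052, so the value was just outside the range, with a difference of -0.22 ± 0.26 (adjusted p = 0.974), and 2 of its 10 probe sets were below the range. The further neighbours GABRA5, which encodes a subunit of a neurotransmitter receptor, and ATP10A had differences of 0.32 and -0.20 and lay inside the range. That probe set of ATP10A was detected in no line, and a dimmer one, detected in 1 other line, was below the range, with a signal of 2.1 in ORMES9 and 12.5 to 38.7 elsewhere (difference -1.39 ± 0.35, adjusted p = 0.870).

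**Figure D2:**
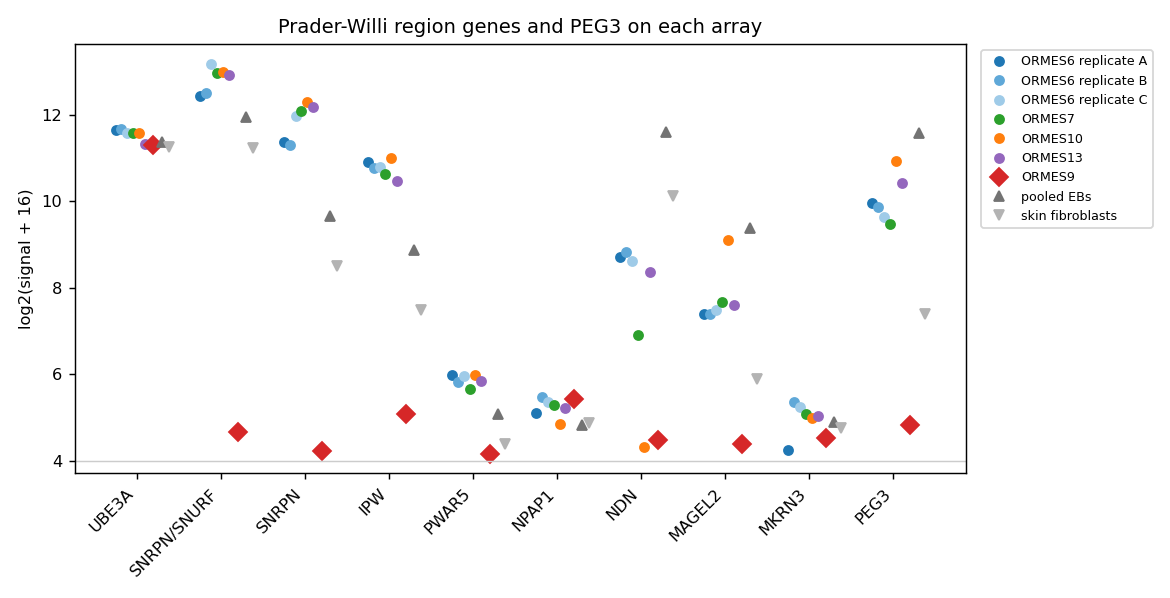
Level, log2(signal + 16), of UBE3A, paternally expressed genes of the Prader-Willi region and PEG3 on each of the 9 arrays (circles: the 6 other ES arrays; red diamond: ORMES9; triangles: pooled EBs and skin fibroblasts). ORMES9 lies near background for SNRPN/SNURF, SNRPN, IPW, MAGEL2 and PEG3 while the other ES arrays lie between 7.39 and 13.18, and for NDN ORMES10 is as low as ORMES9.

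PEG3 encodes a large zinc finger protein and lies on chromosome 19, away from the Prader-Willi region. Its signal was 12.1 in ORMES9, against 975.5, 920 and 773.8 in ORMES6 A to C, 697.3 in ORMES7, 1917.9 in ORMES10 and 1356.5 in ORMES13. The EBs had 3052.5 and the fibroblasts 151.3, so ORMES9 had the lowest signal of all 9 arrays. The difference was -5.35 ± 0.53 (adjusted p = 0.0396 by limma). PEG3 was not detected in ORMES9, and the observed ratio on the signal plus 16 was 40.7-fold. Against the 95th percentile of undetected probe sets it was 13.6-fold. The size of the difference was -5.57 to -5.09 when lines were left out, but the call was lost each time: the adjusted p was 0.433 without ORMES6, 0.0564 without ORMES7, 0.0937 without ORMES10 and 0.0871 without ORMES13, and 0.0618 without ORMES6 replicate A alone. The other PEG3 probe set was also below the range, with a level of 4.91 in ORMES9 and 6.47 to 8.59 elsewhere, a difference of -3.01 ± 0.66 (adjusted p = 0.754). USP29, an imprinted neighbour of PEG3, had a level of 5.07 in ORMES9 and 4.67 to 5.23 on the 6 other arrays, near background in all.

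Across imprinted genes the low values fell on the paternally expressed list. Of 36 listed genes 27 were measured, 3 were called lower (SNRPN, IPW and PEG3), none was called higher (0 at an unadjusted p under 0.05 too), 11 were below the range (40.7%, against 15.1% of all genes) and 1 above it (3.7%, against 14.2%). The median difference was -0.26, against -0.0024 for all genes, and the summed signal of the list was 3993.5 in ORMES9 and 10886.1 to 18218.1 on the 6 other arrays. Of the 23 listed maternally expressed genes 21 were measured, and limma called 0 (0 higher and 1 lower at an unadjusted p under 0.05). In that list 3 were below the range (14.3%) and 4 above it (19%), the median difference was -0.05, and the summed signal was 13183.5 in ORMES9 and 11569 to 13927 elsewhere. Of the 11 paternally expressed genes below the range, SNRPN, IPW, PWAR5 and MAGEL2 lie in the Prader-Willi region, and SGCE and PEG10 lie side by side. They are therefore not 11 separate loci. SNRPN, IPW and PEG3 were chosen as markers with these values known, so the counts that include them describe the list and support nothing further.

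The remaining paternally expressed members below the range were not called. GNAS-AS1, the antisense transcript of the GNAS locus, had signals of 40.7 in ORMES9, 616.8, 530.1 and 216.9 in ORMES6 A to C, 328.3 in ORMES7, 1213.1 in ORMES10 and 545.1 in ORMES13 (difference -3.32 ± 0.63, adjusted p = 0.686). NAP1L5, a gene of the nucleosome assembly protein family that lies inside an intron of another gene in human, had 15.2 in ORMES9 and 122.4 to 304.1 on the 6 other arrays (difference -2.59 ± 0.45, adjusted p = 0.538). Both were undetected in ORMES9 and detected in each other line. SGCE, which encodes epsilon-sarcoglycan, and PEG10, derived from a retrotransposon, lie side by side on chromosome 3 and were both below the range. SGCE had 18.9 in ORMES9 and 94.9 to 159.3 elsewhere (difference -1.98 ± 0.40, adjusted p = 0.754), and PEG10 had 4.3 in ORMES9 and 28.7 to 95 elsewhere (difference -1.87 ± 0.53, adjusted p = 0.938). PPP1R9A, the neighbour of PEG10 that is counted as maternally expressed, was just above the range, at a level of 8.45 against 7.87 to 8.40.

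PLAGL1, a zinc finger factor that restrains proliferation, had 11.5 in ORMES9 and 21.3 to 156.7 elsewhere, and ORMES6 C, at 21.3, lay far nearer to ORMES9 than ORMES6 A and B at 109.2 and 114.8. INPP5F, an inositol phosphatase gene with an imprinted short isoform in human and mouse, had 663.2 in ORMES9 and 1647.7 to 2744.6 elsewhere (difference -1.61 ± 0.34, adjusted p = 0.754). It was detected in ORMES9 and was the only one of the 11 with a signal over 100 there. Paternally expressed genes that stayed inside the range included MEST, a hydrolase gene, with a level of 9.92 against 9.60 to 10.63, DLK1, a membrane ligand related to Notch ligands, with 10.76 against 5.58 to 12.34, and IGF2, a growth factor, with 6.13 against 4.36 to 7.68. DIRAS3 was just above the range, at 5.61 against 5.28 to 5.58. On the low side of the range the imprinted genes nearest its edge were UBE3A, just outside, and TFPI2, inside it by 0.011.

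Among maternally expressed genes the potassium channel gene KCNQ1 had the largest difference, -1.51 ± 0.40 (adjusted p = 0.901), but it was detected in no line. The growth-restraining genes CDKN1C, a cyclin-dependent kinase inhibitor, and PHLDA2, which limits growth of the placenta, had levels of 10.75 against 9.46 to 11.10 and of 8.89 against 7.72 to 9.73. IGF2R, the receptor that clears IGF2, had 12.02 against 11.28 to 12.17, and the adaptor gene GRB10 had 11.55 against 11.21 to 11.63. All 4 were detected in every line and lay inside the range. KCNQ1DN and SLC22A3 were above the range by 0.10 and 0.0037, and ZNF597 by 0.28.

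**Figure D3:**
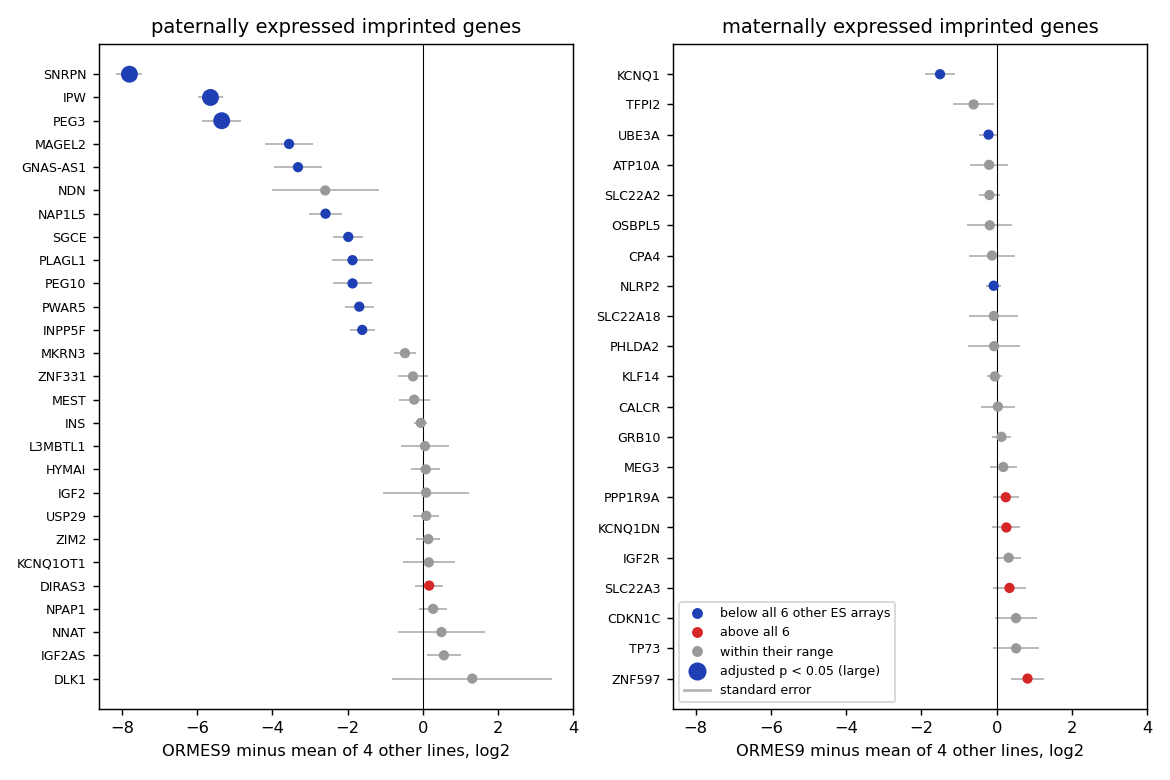
Difference of ORMES9 from the mean of the 4 other lines (x axis, log2 scale, bars are standard errors) for the 27 measured paternally expressed and 21 measured maternally expressed imprinted genes. Blue points lay below all 6 other ES arrays, red points above them, grey points inside their range, and large points were called; SNRPN, IPW and PEG3 are the 3 called genes.

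The authors' deposited table of log2 ratios over the EB array, which is shared by all its columns, gave -8.3 for SNRPN in ORMES9 and 1.5 to 2.4 on the other ES arrays. In the authors' deposited table IPW had -4.1 in ORMES9 and 1.8 to 2.5 elsewhere, and PEG3 had -8.1 in ORMES9 and -2.3 to -0.8 elsewhere. ORMES9 was thus the only ES array below the EBs for SNRPN and IPW, while every ES array was below them for PEG3.

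Outside the imprinted lists CAP1 was the gene called lower, which encodes a protein that binds actin and adenylyl cyclase. Its signal was 166.5 in ORMES9 and 2846.3, 2761.6, 3628, 3012.2, 3064.2 and 2855.8 in ORMES6 A, B and C, ORMES7, ORMES10 and ORMES13. The 6 other arrays were nearly equal and ORMES9 stood apart, though CAP1 was still detected there (difference -4.04 ± 0.26, adjusted p = 0.00268 by limma). A second CAP1 probe set had a difference of -4.70 ± 0.29 (adjusted p = 0.00259), whereas the third CAP1 probe set had a level of 8.14 in ORMES9 and 8.02 to 8.75 elsewhere (difference -0.12 ± 0.36, adjusted p = 0.986). By their identifiers the first and second share a target and are not independent, and the third has another target. The probe sets of CAP1 therefore disagreed, and with ORMES10 and ORMES13 as the only other lines adjusted p was 0.145 for the first. None of the 5 genes to either side of CAP1 on chromosome 1 was called (0 higher and 0 lower), and their differences ran from -0.82 for ZMPSTE24 to 0.83 for COL9A2.

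The 2 lower probe sets without a gene name had differences of -4.55 ± 0.38 (adjusted p = 0.0167) and -5.37 ± 0.51 (adjusted p = 0.0324). The former had signals of 33.6 in ORMES9 and 934.3 to 2170.6 on the 6 other arrays, and its adjusted p was 0.0638 without ORMES6, 0.0593 without ORMES7 and 0.116 without ORMES10. The latter had 6.5 in ORMES9 and 270.6 to 1169.9 elsewhere, with adjusted p = 0.118 without ORMES7, 0.147 without ORMES10, 0.0746 without ORMES13 and 0.178 without ORMES6 replicate C.

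Further genes below the range with large differences were not called. UFD1, part of the complex that extracts ubiquitinated proteins, had 392.5 in ORMES9 and 2292 to 4401.7 elsewhere (difference -2.88 ± 0.34, adjusted p = 0.101), and its other probe set, also below the range, had -0.52. AASS, the first enzyme of lysine breakdown, had 107.2 against 637.2 to 797.6 (difference -2.55 ± 0.31, adjusted p = 0.112), near the EBs at 128.3 and the fibroblasts at 130, and its other probe set was inside the range (difference -0.20). ARNTL2, a circadian clock factor, was undetected in ORMES9 with a signal of 6.4 and had 132 to 187.7 elsewhere (difference -2.91 ± 0.38, adjusted p = 0.151), and 3 of its 4 probe sets were below the range. These 3 genes had narrow spreads among the other lines. With all 6 other arrays in the fit and the line as a random block, adjusted p was 0.0427 for UFD1, 0.0180 for AASS and 0.0332 for ARNTL2. The correlation within a line in that fit, 0.232, came from ORMES6 alone, the only line with replicates. The fit thus counts the 3 ORMES6 arrays largely as separate lines, and its p-values do not stand for more lines.

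TCF8, the older symbol of the repressor gene ZEB1 that turns off epithelial genes, had 68.9 in ORMES9 and 253.9 to 894 elsewhere (difference -2.49 ± 0.64, adjusted p = 0.880), and all 4 of its probe sets were below the range. SLC4A7, a bicarbonate transporter gene, had 265 against 907 to 3926.1 (difference -2.98 ± 0.60, adjusted p = 0.754), with 1 of its 2 other probe sets inside the range. SSBP4, a DNA-binding protein gene, had 64.5 against 253.9 to 1033.7 (difference -2.75 ± 0.61, adjusted p = 0.754), and its other probe set was inside the range. For the hypothetical protein gene FLJ11171 ORMES9 had 19 and the others 122.9 to 543, with ORMES7 the lowest of them (difference -3.41 ± 0.73, adjusted p = 0.754).

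CDK5R2, which encodes an activator of the neuronal kinase CDK5, was called higher. Its signal was 605.2 in ORMES9 and 3.8, 6.9, 15.1, 11.3, 9.6 and 13.7 in ORMES6 A, B and C, ORMES7, ORMES10 and ORMES13, where it was not detected. The EBs had 123.1 and the fibroblasts 6.2, so ORMES9 was the only ES array above background. The difference was 4.54 ± 0.39 (adjusted p = 0.0167 by limma), or 23.3-fold on the signal plus 16, which is the observed ratio to undetected values. KCNC2, a voltage-gated potassium channel gene of neurons, had 152.2 in ORMES9 and 0.6 to 3.2 on the 6 other ES arrays, 1.4 in the EBs and 1.3 in the fibroblasts (difference 3.28 ± 0.27, adjusted p = 0.0155). With the lowest detected level of each other line as its floor, the KCNC2 ratio was 7.90-fold. That ratio depends on the floor taken and is not a firm bound. Its other probe set had a difference of 0.39 ± 0.23, inside the range. The calls of both genes changed with the lines in the fit: for CDK5R2 adjusted p was 0.292 without ORMES6, 0.0776 without ORMES7 and 0.116 without ORMES10, and for KCNC2 it was 0.353, 0.0913, 0.126 and, without ORMES13, 0.0594. The CDK5R2 call was kept without ORMES13. With all lines in the fit, both calls were also lost at an offset of 1. The differences themselves stayed between 4.50 and 4.598 for CDK5R2 and between 3.26 and 3.30 for KCNC2 when each line was left out in turn.

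CDK5R2 and KCNC2 are known from neurons, and the list of neural genes was therefore set beside them. Of 30 measured neural genes limma called 0 (1 higher and 1 lower at an unadjusted p under 0.05), 2 were above the range (6.67%, against 14.2% of all genes) and 6 below (20%, against 15.1%), with a median difference of -0.08 and a summed signal of 18411.3 in ORMES9 and 17689.7 to 25313.8 elsewhere. SOX3, a factor of neural progenitors, had 406.8 in ORMES9 and 783.7 to 2833.2 elsewhere (difference -1.86 ± 0.66, adjusted p = 0.970). ZIC1 and PAX6, factors of the early neural plate and eye, had differences of -1.60 and -1.20.

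Higher genes that were not called had either a wide spread among the other lines or a narrow one with a smaller difference. DUSP4, a phosphatase that dampens ERK signalling, had 197.8 in ORMES9 and 4.8 to 14.9 on the 6 other arrays, with no overlap and nearly equal values among them (difference 2.88 ± 0.37, adjusted p = 0.151). GIP, the gene of a gut hormone, had 391.3 against 8.9 to 47.3 (difference 3.48 ± 0.55, adjusted p = 0.426). UNG2, a DNA glycosylase, had 248.8 against 3.3 to 31.3 and was detected in no other line (difference 3.05 ± 0.57, adjusted p = 0.669). Its ratio was 7.91-fold with the same floor as for KCNC2. No other ES array had a signal over 47.3 for any of these 3 genes.

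SSX3, a member of a family of near-identical genes whose signals may mix, had 690.8 in ORMES9 and 4.6 to 81.9 elsewhere, while its other 2 probe sets were inside the range. DOCK8, an activator of the small GTPase CDC42, had 587.4 in ORMES9, 115.1 to 169.5 in ORMES6 and 20.5 to 37 in ORMES7, ORMES10 and ORMES13 (difference 3.26 ± 0.74, adjusted p = 0.756), and its 3 other probe sets, undetected in every line, were inside the range. WFDC2, a secreted protease inhibitor of epithelia, had 3962.3 in ORMES9, 2053.9 in ORMES10, 1289 in ORMES13 and 67.8 to 211.8 in ORMES6 and ORMES7. AP1M2, an adaptor protein for sorting in epithelial cells, had 1123.1 in ORMES9, 358.8 in ORMES10, 645.1 in ORMES13 and 37.7 to 76.1 in ORMES6 and ORMES7. For WFDC2 and AP1M2 ORMES9 was therefore the highest of 3 lines that were all above ORMES6 and ORMES7, and their adjusted p was 0.974. Of the 3 WFDC2 probe sets this was the only one above the range.

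The zinc finger gene ZNF292 had 1245.1 in ORMES9 and 60 to 232.6 elsewhere (difference 2.92 ± 0.56, adjusted p = 0.721), and 3 of its 4 probe sets were above the range. ADFP, the older symbol of the lipid droplet protein gene PLIN2, had 970.3 in ORMES9, 294.3 in ORMES7 and 19.2 to 110.4 on the remaining ES arrays. The unannotated genes MGC4504 and UNQ2446 had differences of 3.53 and 2.68 (adjusted p = 0.939 and 0.510).

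**Figure D4:**
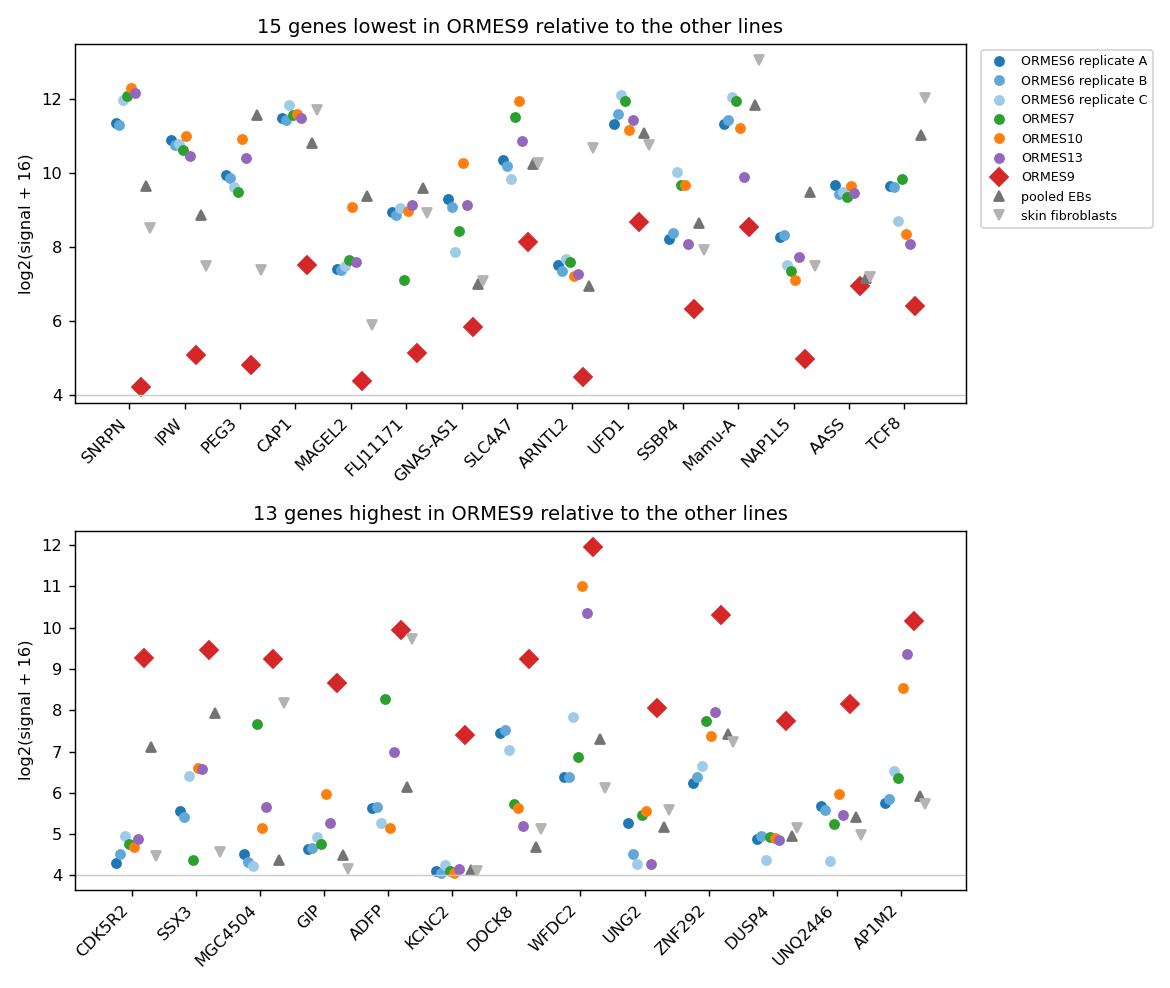
Level, log2(signal + 16), on each array for 15 genes lowest (top) and 13 genes highest (bottom) in ORMES9 relative to the other lines, ordered by the size of the difference (circles: the 6 other ES arrays; red diamond: ORMES9; triangles: pooled EBs and skin fibroblasts). ORMES9 lies outside all circles for every gene, as the choice of genes requires, while the spread of the circles ranges from narrow (CAP1, KCNC2, DUSP4) to wide (WFDC2, AP1M2).

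Genes of ES cells and their surface were more often above the range than below it. Of 23 measured genes of the epithelial and ES cell surface list 14 were above all 6 other arrays (60.9%, against 14.2% of all genes) and 2 below, with a median difference of 0.74. Limma called 0 of them (3 higher and 0 lower at an unadjusted p under 0.05). CDH1, the gene of E-cadherin, had 926 in ORMES9, 656.1 in ORMES10, 668.4 in ORMES13 and 61.9 to 189.4 in ORMES6 and ORMES7, and CLDN7, of tight junctions, had 327.4, 323.9 and 254 in ORMES9, ORMES10 and ORMES13 and 13.3 to 22 in the others. ORMES10 and ORMES13 were thus also high for both genes, and ORMES9 was the highest of the 3 (adjusted p = 0.974 for both). The surface protein gene CD9 had 2361.3 in ORMES9 and 446.5 to 1494.7 elsewhere (difference 1.51 ± 0.50, adjusted p = 0.956).

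Of 31 measured pluripotency factors 10 were above the range (32.3%, against 14.2% of all genes) and 1 below, with a median difference of 0.32, and 0 were called (6 higher and 0 lower at an unadjusted p under 0.05). NODAL, the ligand that keeps primate ES cells pluripotent, had 510.6 in ORMES9 and 69.6 to 212.1 on the 6 other arrays (difference 1.80 ± 0.44, adjusted p = 0.825). LEFTY1, an inhibitor and target of Nodal signalling, had 3007.7 against 415.4 to 1241.6 (difference 1.94 ± 0.49, adjusted p = 0.859). Both genes were detected in every line, and ORMES9 did not overlap the others. DPPA3, known from mouse to protect imprinted methylation in the zygote, had 102 in ORMES9 and 12 to 64.6 elsewhere (difference 1.58 ± 0.51, adjusted p = 0.956). Among 39 measured genes of the TGF-beta family pathways 10 were above the range (25.6%, against 14.2% of all genes), NODAL and LEFTY1 among them, and 1 below, with 0 called (3 higher and 0 lower unadjusted).

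Over all genes 14.2% were above the range and 15.1% below. Of 30 measured genes of chromatin and DNA methylation 12 were above the range (40%) and 2 below, with a median difference of 0.22 and 0 called (1 higher and 0 lower unadjusted). TET2, an enzyme that oxidises methylated cytosine, had 367 in ORMES9 and 72.2 to 287.8 elsewhere, and EHMT1, a histone H3 methyltransferase, had 642.1 against 306.2 to 485.2 (adjusted p = 0.974 for both); the median over the EHMT1 probe sets was -0.074. DNMT3L, the cofactor of methyltransferases that set imprints in germ cells, was detected in no line. The immediate early and stress list had 9 of 27 above (33.3%) and 1 below, with 0 called (1 higher and 0 lower unadjusted). The WNT list had 9 of 32 above and 3 below, and FZD10, a WNT receptor gene, was below the range with a signal of 112.3 against 167.3 to 631.6.

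Among markers of cells into which ES cells differentiate, those of endoderm and liver had a high summed signal in ORMES9, ORMES10 and ORMES13. In the endoderm and liver list 17 of 26 measured genes were detected in ORMES9, against 9 in ORMES6, 10 in ORMES7, 19 in ORMES10 and 21 in ORMES13, and the summed signal was 22597.6 in ORMES9, 6074.7 to 10194.1 in ORMES6 and ORMES7, 16953.9 in ORMES10 and 24609 in ORMES13. In that list 6 were above the range (23.1%, against 14.2% of all genes) and 3 below (11.5%, against 15.1%), the median difference was 0.61, and 0 were called (3 higher and 1 lower unadjusted). HHEX, a factor of early endoderm, had 3575.5 in ORMES9, 3108.2 in ORMES10, 1777.8 in ORMES13 and 141.2 to 473.1 in the others. AHSG, the gene of a liver plasma protein, was below the range instead, with 4.8 in ORMES9, 163.1 in ORMES10, 188.9 in ORMES13 and 6.2 to 29.8 in the others (difference -1.94 ± 1.11, adjusted p = 0.974). The endoderm sums thus placed ORMES9 between ORMES10 and ORMES13.

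The other lists of differentiated cells were as follows, beside 14.2% of all genes above the range and 15.1% below. The shares above for blood and endothelium genes (16.7%) and for fibroblast and matrix genes (15.4%) lay near that of all genes. Primitive streak and mesoderm genes had 4 of 19 above and 1 below (summed signal 5333.4 in ORMES9 and 1853.1 to 6649.2 elsewhere), with GSC, a factor of the organizer, at 1216.4 against 193 to 730.7, GATA4, a heart and endoderm factor, at 426.1 against 49.3 to 248.4 and FOXF1, of lateral mesoderm, at 150.7 against 2 to 64.2. Trophoblast genes had 4 of 21 above and 1 below (12416.7 against 8559.5 to 20231.6), with the keratin gene KRT7 undetected in every line. Blood and endothelium genes had 4 of 24 above and 6 below (1980.4 against 1815.4 to 3513.6), and germ cell genes 4 of 14 above and 2 below (4936 against 843.8 to 3795.2), with KIT at 3589.1 against 246.2 to 2245. Fibroblast and matrix genes had 6 of 39 above and 2 below, and their summed signal of 43756.4 lay inside the 22427.8 to 85054.6 of the other ES arrays and below the 167385 of the fibroblasts. Contractile genes had 0 of 15 above and 5 below, with a median difference of -0.29 and a sum of 34974.7 against 36143.7 to 47156.1. Limma called 0 genes of these 6 lists, with 5 higher and 2 lower at an unadjusted p under 0.05. The part of such cells in the imprinted gene results was not tested.

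MHC class I genes have near-identical copies that may share probes, so their values are uncertain. Of 20 measured 3 were above the range and 6 below (30%, against 15.1% of all genes), with 0 called (1 higher and 2 lower unadjusted). Mamu-A, a macaque class I gene outside that list, had 357.5 in ORMES9, 937.2 in ORMES13 and 2349.4 to 4225.5 on the other 5 arrays (difference -2.62 ± 0.67, adjusted p = 0.870), and the probe set annotated as HLA-E had 78.1 against 140.6 to 1335.9. Of 40 cell cycle genes 5 were above and 9 below (22.5%), with 0 called (0 higher and 5 lower unadjusted). TYMS, the thymidylate synthase gene, was the clearest of them, with 928.5 in ORMES9 and 3227.6 to 4059.6 on the 6 other arrays (difference -1.999 ± 0.26, adjusted p = 0.151, and 0.0332 with the line as a random block). The limit of the random block given for UFD1 holds here too. Cyclin A2 (CCNA2) and the checkpoint kinase BUB1B had differences of -0.93 and -0.89.

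For the remaining lists the members above and below the range numbered 3 and 2 of 23 for CDK inhibitors and p53 targets, 4 and 3 of 25 for FGF signalling (DUSP4 among the former), 4 and 2 of 38 for HOX genes, 3 and 1 of 21 for glycolysis, 0 and 3 of 26 for oxidative phosphorylation and 6 and 1 of 33 for ribosomal proteins. For common reference genes they were 3 (20%) and 5 (33.3%) of 15, for X-linked genes that escape inactivation in human 5 and 2 of 22, and for X inactivation 0 and 0 of 4. Limma called 0 genes in these 9 lists, with 6 higher and 5 lower at an unadjusted p under 0.05. Their median differences lay between -0.09 and 0.21. Over all genes 14.2% were above the range and 15.1% below.

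**Figure D5:**
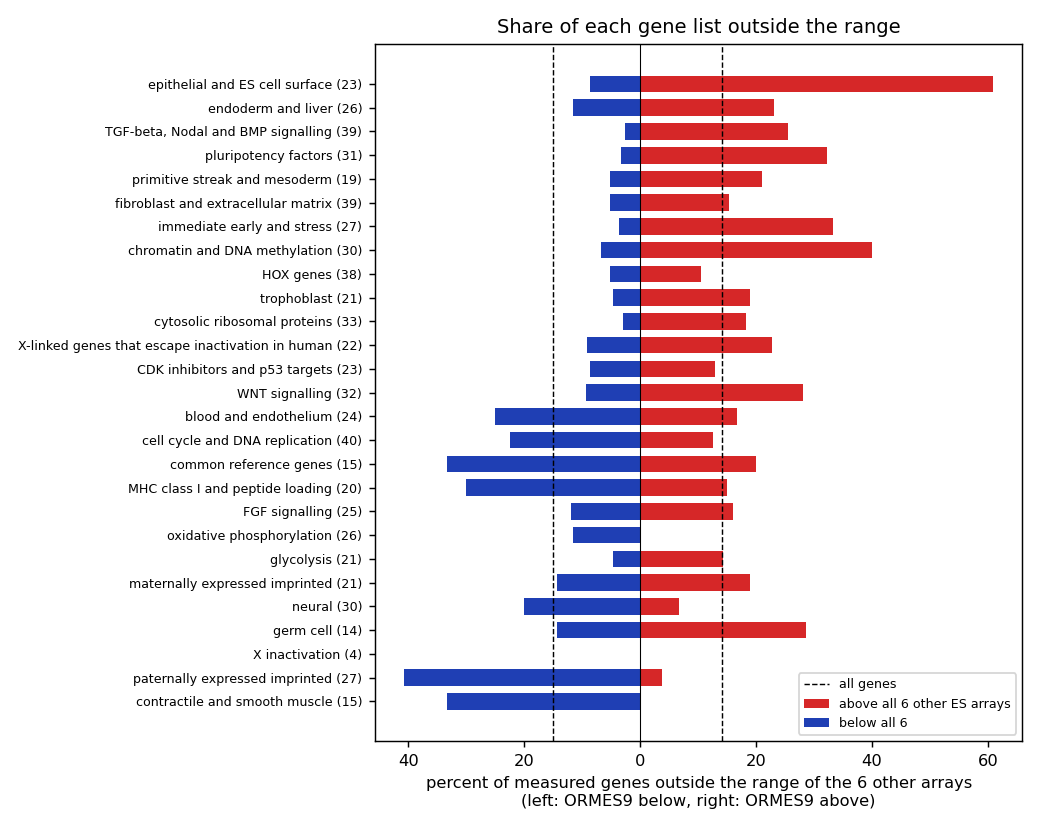
Percent of the measured genes of each of 27 lists (number of genes in parentheses) for which ORMES9 lay above (red, right) or below (blue, left) all 6 other ES arrays, ordered by the list's median difference. Dashed lines mark the share of all genes, 14.2% above and 15.1% below; the epithelial and ES cell surface list reaches 60.9% above and the paternally expressed imprinted list 40.7% below.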

How the data were processed

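The authors' deposited intensity values, 1 linear signal for each probe set and array, came from MAS5, per the submitters' processing notes; its version and settings are not given in the sources used here. Each array had a 2% trimmed mean of 200, so no further scaling was applied. Deposited p-values for detection and the authors' deposited log2 ratios over the EB array came from a table whose file headers name the lines; the ORMES6 detection column stands for 1 replicate, and which is not stated. Another 143 columns of per-sample values were not used.

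Of 52865 probe sets, 99 controls and 3 with missing values were dropped, and 52763 were fitted. limma 3.58.1 in R 4.3.3 (lmFit, eBayes with a variance trend) was run on log2(signal + 16) for 5 line values, ORMES6 being the mean of 3 arrays, with 3 residual degrees of freedom. Benjamini-Hochberg adjustment covered all fitted probe sets, and 36 Y-linked probe sets of 18 genes were then left out. Where a gene had several probe sets, the brightest on average in the 5 lines stood for it. Gene symbols were read from the probe set descriptions in the authors' deposited table and updated where the reference tables held a newer one: 40089 probe sets had 1 symbol, 332 several and 12342 none, and 501 symbols were updated. The order of genes came from the RefSeq genes of T2T-MMU8v2.0.

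Named genes were up to 15 in each direction outside the range (called ones first, then by size, and detected in ORMES9 if higher or in another line if lower), imprinted list members called or outside the range, POU5F1, SOX2 and NANOG, and up to 3 outside the range from each other list. Some genes that this rule names are not reported here. Neighbours and imprinted genes inside the range were added after their values were seen. The members and lists were chosen with earlier results of these data known.

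The test was tested on simulated data for ORMES9 against the other 4 lines: over 10 runs with 200 of 52763 probe sets changed, shifts of 2, 4, 6 and 8 on the log2 scale were recovered in 23.2%, 89%, 97.8% and 99% of cases, with 4.01% of calls false. More probe sets were changed there than were called in the data, which makes the adjustment less strict, so recovery in the data may be lower. The number of arrays limits the precision. Alternatives covered the offset, scaling, filters on low signals, each line or replicate left out, the line as a random block, the variance trend and the choice of probe set. Figures were drawn with matplotlib 3.10.9.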

Additional observations from a re-analysis of the deposited data

Results flagged for a closer look

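For 6 of 115 named genes 1 of the 4 other lines stood far from the remaining 3, by a criterion that chance meets in about 1 in 20 groups; levels are log2(signal + 16). MAGEL2 was 9.09 in ORMES10 and 7.42 to 7.66 in the rest. FLJ11171 was 7.12 in ORMES7 and 8.96 to 9.13 in the rest. TRAPPC2, a vesicle transport gene, was 10.19 in ORMES6 and 9.65 to 9.73 in the rest. ZP2, of the egg coat, was 5.36 in ORMES10 and 5.66 to 5.68 in the rest. TYMS was 11.66 in ORMES13 and 11.94 to 11.96 in the rest. UQCRC2, of respiratory complex III, was 11.20 in ORMES6 and 10.38 to 10.49 in the rest. ORMES9 was outside the range for all 6 genes, and a line that stands apart widens the error of its difference.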

How the results depend on the processing

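No paired analysis was possible because the lines share no replicate numbers: only ORMES6 has replicates. The calls of SNRPN and SNRPN/SNURF were kept in 17 of 17 alternatives run per probe set, those of IPW and both CAP1 probe sets in 16, CDK5R2 in 11, KCNC2 in 9 and PEG3 in 6. The 2 probe sets called higher became 0 with an offset of 1 (894 at an unadjusted p under 0.05), 0 at a mean signal of at least 100 (276 unadjusted), 1 without a variance trend and 6 with the line as a random block. They were 0 to 2 when lines or replicates were left out (0 without ORMES6, ORMES7 or ORMES10, with 1249, 1272 and 1376 unadjusted). The 8 called lower became 5 without a trend, 14 with the random block and 5 to 8 in the leave-outs. The random block counts the ORMES6 replicates largely as separate lines. Against ORMES10 and ORMES13 only, chosen after seeing the data, limma called 0 higher (1606 unadjusted) and 2 lower, with 16440 probe sets above and 19336 below the range. The probe sets above all 6 other ES arrays numbered 2522 at a mean signal of at least 100, 4193 where detected in a line and 7605 to 11843 in the leave-outs; probe sets below all 6 other ES arrays numbered 2429, 4179 and 8920 to 13625. The fewer probe sets under the filters follow from fewer being tested. The paternally expressed median of -0.26 became -2.59 at a mean signal of at least 100, -1.69 where detected and -1.26 against ORMES10 and ORMES13 only, and the maternally expressed one, -0.05, ran from -0.070 to 0.14 in the leave-outs (0.14 without ORMES10). Members undetected in ORMES9, such as SNRPN, IPW and PEG3, pass the signal and detection filters through the other lines. Genes dim in every line drop out, so the filtered paternally expressed medians are lower by construction. Uncalled differences turned sign for POU5F1 (0.017 without ORMES6, 0.19 against ORMES10 and ORMES13 only) and NANOG (-0.026 without ORMES13, and up to 0.30 in the other leave-outs). With the median over a gene's probe sets they turned for SOX2 (0.26), PSG1 (-0.088), EHMT1 (-0.074), BAX (-0.16), COX5A (0.39), RPL13 (-0.12) and RPL37 (-0.23); the cause was not tested. That median ended the calls of SNRPN (adjusted p = 0.980), PEG3 (0.255) and KCNC2 (0.139). For probe sets undetected in ORMES9 the array's background limits the size of a low difference to a bound.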

Other observations

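Genes detected in at least 1 line were also grouped by chromosome. On chromosome 19, 120 of 547 genes were above all 6 other ES arrays (21.9%) and 43 below (7.86%), with a median difference of 0.14. On each other chromosome 11.2% to 19.5% were above, 11.6% to 19.7% were below, and the median differences ran from -0.05 to 0.09. No test was made of these shares.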
